A study of Mus musculus with 8 samples.

Results

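Peaks of trimethylated lysine 36 of histone H3 (H3K36me3) that lay in protein-coding genes of mouse embryonic stem cells, measured 10000 bp or less, and were still met by a peak after knockdown of Setd2 are described here. A member was a peak of the control list on chromosomes 1 to 19 whose midpoint lay in a RefSeq protein-coding gene and which shared at least 1 bp with a peak of the knockdown list. Of 24005 shorter genic control peaks, 678 met this rule, which is 2.82% (95% exact binomial interval 2.62 to 3.04%). The other 23327 are called lost here, meaning only that no knockdown peak touched them. The 678 members lay in 598 of the 8282 genes that held a shorter control peak, or 7.22% (6.67 to 7.80%). Since the members were chosen by overlap with the knockdown list, the overlap is given as a description with no test.

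Knockdown cells were labelled as Setd2 knockdown and received doxycycline at 1 µg/ml for 4 days. Control cells were labelled control and received none. All cells were grown without feeders as spheres on gelatin, in serum-free medium with LIF and inhibitors of MEK and GSK3, conditions that hold embryonic stem cells in the naive pluripotent state. The growth protocol gives an inducible Setd2 knockdown for every sample, whereas names attached to the peak lists call the control shCont, so the labels leave unclear whether control cells carried the same hairpin. H3K36me3 ChIP and input were sequenced in 2 replicates each per condition, 8 libraries in all, and the authors called peaks on merged replicates. Each condition is therefore 1 peak list, without replicate spread, and no comparison between conditions could be tested. The merged ChIP data held 29416169 tags after duplicate removal in knockdown and 36244210 in control.

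H3K36me3 is laid down over the bodies of transcribed genes by SETD2, which travels with elongating RNA polymerase II. In mammals SETD2 makes most of the trimethyl mark, while NSD enzymes make mainly the dimethyl form. Readers of the mark include the de novo DNA methyltransferases DNMT3A and DNMT3B. Among zinc finger genes of the KRAB family it often coincides with the heterochromatic mark H3K9me3.

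The labelled cell type and the target were read from the same lists. All 9 naive pluripotency markers, such as Nanog and Pou5f1, carried control peaks over 41.1 to 100% of their length (median 84.4%), and 2 of them carried knockdown peaks, over at most 3.51%. None of the 7 fibroblast, 5 hepatocyte, 6 primitive endoderm and 5 blood markers carried a peak in either list. Setd2 itself had no knockdown peak and 12 control peaks over 40.1% of its length, of which 11 were shorter ones and none was a member. This shows the mark on the gene and not its transcript, which was not measured here.

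A few members reached a promoter, where this mark is usually scarce, and those that did so in both lists are shown first. The window of 250 bp upstream of the listed transcript start lay wholly inside a member for 13 listed starts on chromosomes other than 18, with Trim60 and Trim61 listed at the same window, and in 4 cases the knockdown peak also held all of it. These 4 windows belong to Chst5, a carbohydrate sulfotransferase gene, Epp13, a gene named for an epididymal protein, Fbxw23, an F-box gene, and Lhx9, a LIM homeobox transcription factor gene. They are printed 5′ to 3′ on the gene's strand from RefSeq, assembly GRCm38.p6. Capitals mark letters that match the TATA box (TATAAA), the CCAAT box (CCAAT) or the GC box (GGGCGG), each searched on both strands with overlapping matches counted. A match is a description of the letters and not of binding.
Chst5, chr8:111910200-111910449, minus strand: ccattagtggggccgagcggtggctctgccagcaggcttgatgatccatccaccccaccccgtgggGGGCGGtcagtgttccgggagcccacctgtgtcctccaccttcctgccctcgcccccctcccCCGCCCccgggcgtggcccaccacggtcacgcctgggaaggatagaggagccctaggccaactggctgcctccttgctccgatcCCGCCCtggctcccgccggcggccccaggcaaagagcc
Epp13, chr7:6252460-6252709, plus strand: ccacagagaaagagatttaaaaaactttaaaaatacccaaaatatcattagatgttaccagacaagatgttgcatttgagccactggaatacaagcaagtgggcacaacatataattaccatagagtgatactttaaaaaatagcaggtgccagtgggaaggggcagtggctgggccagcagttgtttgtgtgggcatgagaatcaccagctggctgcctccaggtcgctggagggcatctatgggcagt
Fbxw23, chr9:109543190-109543439, minus strand: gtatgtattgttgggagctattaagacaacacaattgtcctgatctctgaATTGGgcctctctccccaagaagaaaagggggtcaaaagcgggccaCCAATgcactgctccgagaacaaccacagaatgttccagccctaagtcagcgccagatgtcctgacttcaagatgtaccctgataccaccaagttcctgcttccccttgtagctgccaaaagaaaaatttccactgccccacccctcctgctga
Lhx9, chr1:138842445-138842694, minus strand: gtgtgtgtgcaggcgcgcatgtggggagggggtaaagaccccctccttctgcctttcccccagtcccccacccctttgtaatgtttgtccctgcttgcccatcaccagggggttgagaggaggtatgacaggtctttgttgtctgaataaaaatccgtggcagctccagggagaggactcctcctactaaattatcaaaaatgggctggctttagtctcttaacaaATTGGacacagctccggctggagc

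The Chst5 window was 71.6% G or C, with 16 CpG dinucleotides and 3 GGGCGG matches. The Epp13 window was 44.8% G or C, with 1 CpG and none of the 3 motifs. The Fbxw23 window was 50% G or C, with 3 CpG and 2 CCAAT matches, and the Lhx9 window was 53.6% G or C, with 4 CpG and 1 CCAAT match. Over the 13 windows inside members the median was 48.0% G or C and 4 CpG. Over 16457 listed genes on the same chromosomes, with 1 window each, it was 55.6% and 10 CpG. Of the 13 windows 23.1% held CCAAT, 15.4% GGGCGG and none TATAAA, and of the 16457 windows 36.3%, 43.6% and 12.5% did. The sets are not alike. Each gene of the 16457 gave the window nearest its annotated 5′ end, while the 13 include every listed start under a member, also internal ones, and count the Trim60 and Trim61 window for both genes. The Lhx9 member was covered over 97.4% of its length by knockdown peaks, the Chst5 member over 84.0%, the Epp13 member over 49.4% and the Fbxw23 member over 31.8%. Depth-scaled tag density in the knockdown peak divided by that in the control peak was 1.12 at Chst5, 1.101 at Epp13 and 0.819 at Fbxw23. At Lhx9, with 2 knockdown peaks on the member, the window lay in the one that shared less, whose density is not given. Depth-scaled density, used throughout, is the tags per kb of a peak divided by the genome mean of kept tags per kb in the same condition, which was 15.7 in knockdown and 19.4 in control.

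At most of the 678 members, the knockdown peak was a shorter and sparser stretch within the control peak. The knockdown peak on a member had a median length of 1672 bp, with a range of 883 to 9224 bp, against a median of 4422.5 bp and a range of 1284 to 9976 bp for the control peaks themselves. Depth-scaled density had a median of 2.36 in knockdown peaks, with quartiles of 2.25 and 2.52, and a median of 3.05 in control peaks, with quartiles of 2.57 and 3.52. The ratio of knockdown to control density had a median of 0.787 and quartiles of 0.690 and 0.924. It was below 1 at 572 members, 84.4% (81.4 to 87.0%), and at or above 1 at 106. Both densities come from peaks that passed the caller's threshold in their own list, so low values are missing from each, and the knockdown density is taken over the shorter stretch. Knockdown cells also lost a larger share of tags as duplicates, 23.9% against 14.7% in control. Each density is relative to the genome mean of its own condition. The ratio therefore compares relative enrichment and does not give the absolute change in the mark, also where it is at or above 1.

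Added up, knockdown peaks lay over 1316055 of the 3314015 bp in members, or 39.7%. The median member was covered over 43.4% of its length, 276 were covered over at least 50%, 14 over their whole length and 6 over less than 10%. The control summit lay in a knockdown peak at 481 members, 70.9% (67.4 to 74.3%). At 534 members, 78.8%, the knockdown peak was enclosed by the control peak, and at 144 it ran past the control peak. At 37 members 2 separate knockdown peaks lay on the control peak, and none held more; lengths and densities are then those of the one that shared more. All told 711 of the 3040 knockdown peaks lay on members, and 4 of the 711 touched more than 1 member. The strand was listed for the genes of 532 of the 655 members on chromosomes other than 18. Among these the midpoint of the knockdown peak was displaced towards the 3′ end of the gene in 258, 48.5% (44.2 to 52.8%), an interval that includes an even split.

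**Figure D1:**
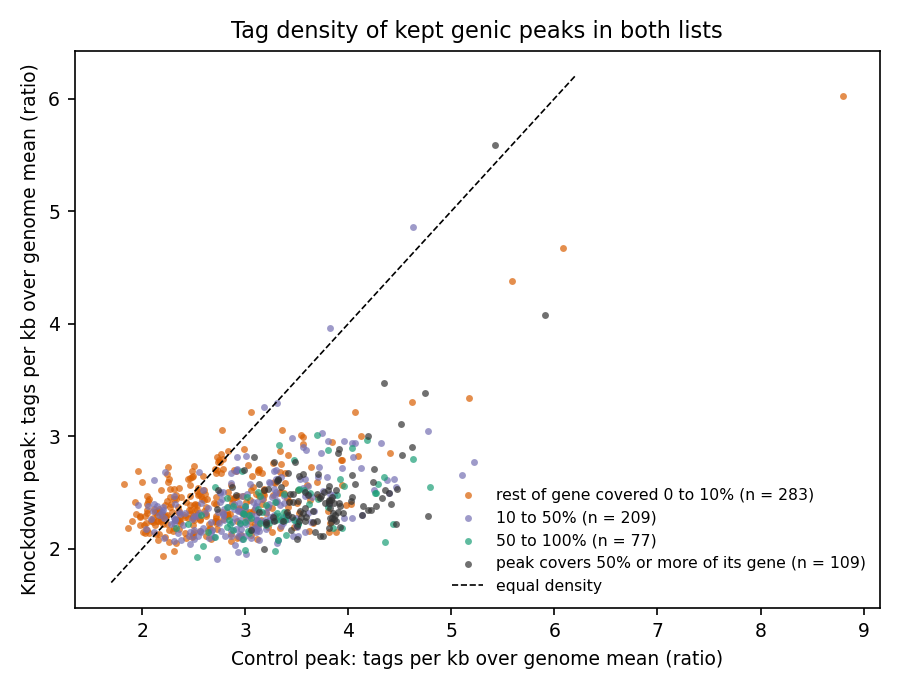
Depth-scaled tag density, as tags per kb of the peak over the genome mean (a ratio), of the knockdown peak (vertical axis) and the control peak (horizontal axis) at each of the 678 members, coloured by how much of the rest of the gene control peaks covered. Most points, 572 of 678, lie below the dashed line of equal density, and the quartiles of knockdown values were 2.25 and 2.52 while control values spread between 1.83 and 8.80.

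Knockdown density varied less among members than control density did. Ordered by control density and divided into quintiles, members had median control densities of 2.24, 2.71, 3.05, 3.3997 and 3.94, and median knockdown densities of 2.30, 2.31, 2.33, 2.42 and 2.502. The ratio, which contains the ordering variable, had medians of 1.05, 0.874, 0.762, 0.706 and 0.633. Of the 106 members at or above 1, 88 were in the sparsest quintile, where the knockdown peaks covered a median of 64.9% of the control peak, against 35.8% in the densest. The sparsest members were also short, with a median length of 1905 bp, and the densest long, at 6786 bp.

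Members with the highest ratio were short and sparse control peaks. Here and in the rankings below, genes with Gm and Rik symbols are left out. The highest ratio, 1.41, was at Wnt3, a secreted signalling ligand, where density was 2.57 in knockdown and 1.83 in control over chr11:103803921-103806038. Xkr6, of the XK-related membrane protein family, followed with densities of 2.69 in knockdown and 1.96 in control. Nhsl1, a relative of the Nance-Horan syndrome gene, had 2.59 in knockdown and 2.00 in control. Knockdown peaks covered 98.3% of the Wnt3 member and the whole of the Xkr6 and Nhsl1 ones. Flt1, a receptor for vascular endothelial growth factors, Dgki, a diacylglycerol kinase, and Sox30, a transcription factor of the germ line, each held a member as the lone control peak of the gene. Their densities were 2.72 in knockdown and 2.25 in control at Flt1, 2.47 and 2.05 at Dgki, and 2.67 and 2.24 at Sox30. Dnmt3l, a cofactor of the de novo DNA methyltransferases, held 2 members, with knockdown densities of 2.39 and 2.40 and control densities of 1.96 and 2.11. BC035044 closed the 10 highest so ranked, with 2.31 in knockdown and 1.94 in control. Kcng2, described further on, supplied the 2 remaining ones. These 10 members had control densities under the members' lower quartile of 2.57, on 55 to 146 control tags each.

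The lowest ratios were at dense control peaks. Foxk2, a forkhead transcription factor, had a density of 2.06 in knockdown and 4.35 in control, a ratio of 0.474. Tmed7, a cargo receptor of the secretory pathway, had 2.29 in knockdown and 4.77 in control. Rpl12, of the large ribosomal subunit, had 2.22 in knockdown and 4.46 in control, and Aen, an apoptosis-linked nuclease, had 2.22 and 4.43. Slc38a1, a glutamine transporter, had 2.65 in knockdown and 5.10 in control. At these 5 members control densities lay above the members' upper quartile of 3.52, while knockdown densities were 2.06 to 2.65.

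The 10 members with the most sequence under knockdown peaks included 4 in zinc finger genes. Zfp936 on chromosome 7 gave the longest stretch, 8670 shared bp of the control peak at chr7:43146671-43155765, where density was 2.91 in knockdown and 3.56 in control. Ppp1r9a, which encodes the actin-binding protein neurabin, shared 7768 bp, with densities of 2.93 in knockdown and 3.56 in control. Ncl, which encodes nucleolin, shared 7225 bp under 2 knockdown peaks. Density was 2.83 in the knockdown peak that shared more and 4.52 in the control peak. Rnf125, a ubiquitin ligase, shared 7048 bp, with 3.00 in knockdown and 4.13 in control. Sema5b, a semaphorin, shared 6171 bp, with 2.70 and 2.92. Trim28, the corepressor that KRAB zinc finger proteins recruit, shared 5940 bp, with 3.38 in knockdown and 4.75 in control. Eef2, the translocation factor of translation, shared 5603 bp, with 4.07 in knockdown and 5.91 in control. Zfp982 shared 6240 bp at a density of 4.67 in knockdown and 6.08 in control. Zfp978 shared 6757 bp at one of its 3 members, with 2.76 in knockdown and 3.27 in control. The densest member of all, named after its value was seen, was in Zfp600, with 6.02 in knockdown and 8.80 in control.

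Kept shares followed the length and density of the control peak, which bear on whether a knockdown peak can meet it. Of peaks up to 2 kb 79 of 8411 were kept, 0.939%, and the share was 2.25% for 2 to 4 kb, 4.61% for 4 to 6 kb, 7.004% for 6 to 8 kb and 11.96% for 8 to 10 kb, where 110 of 920 were kept. By quintiles of control tags per kb it was 0.750, 0.937, 1.15, 1.92 and 9.37%, so 450 of the 678 members were in the densest quintile. Among the 19 chromosomes it ran between 1.92% on chromosome 12 and 3.44% on chromosome 7. Lost peaks were therefore weighted to the members over strata of length and tags per kb, 10 by 10, and are called like lost peaks below. Median length was 4422.5 bp in members and 4446 bp in like lost peaks, and median tags per kb 59.2 in members and 58.5 in like lost peaks. The upper quartile of tags per kb stayed higher in members, at 68.2 against 62.3, since the densest stratum has no finer match.

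Members lay in genes that carried less of the mark elsewhere than the genes of like lost peaks did. In members that covered under 50% of their gene, 569 in all, control peaks covered a median of 10.2% of the rest of the gene, against 34.4% for like lost peaks. This ratio of 0.296 had an interval of 0.239 to 0.381 from the counting error of the members' median. It was 0.583 when both lists were held to an FDR of at most 1%, which left 114 members, and 0.136 where knockdown peaks had to cover at least 50% of the member. That FDR limit is not a stricter one, since it left mainly knockdown peaks of low caller score. Members had a median knockdown FDR of 1.53%, and Ppp1r9a, at a score of 682.9, had 75%. With scores of at least 100 in both lists, which left 221 members, the ratio was 0.222. The nearest other control peak was a median of 3696 bp away from members and 1181 bp from like lost peaks. In 29.4% of members the gene held no other control peak, against 20.1% of like lost peaks, and in 26.7% the nearest control peak was over 10 kb away, against 13.1%. Another control peak within 500 bp was found at 20.5% of members and 34.9% of like lost peaks. Another kept peak lay within 5 kb of 12.1% of members and 3.77% of like lost peaks. Apart from the last, these measures use only the control list and not the overlap that chose the members, but neighbouring peaks of a gene share its cover, so no test was made.

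The genes of members had a median length of 47841 bp, against 31776 bp for like lost peaks, and 14.9% of members were in genes over 200 kb, against 4.23%. The median distance from the midpoint to the nearest gene end was 8040 bp in members and 5814 bp in like lost peaks, a ratio of 1.38. With both lists held to an FDR of at most 1%, which left mainly low-scoring knockdown peaks, that ratio was 1.09. Its interval of 0.779 to 1.72 includes equal distances. With scores of at least 100 in both lists the ratio was 1.71 with an interval of 1.30 to 2.40. Against all lost peaks, without the weighting, both orders turned, since those had medians of 49954 bp for gene length and 9639 bp for distance to the end. On the gene's strand the median member lay 64.8% of the way from the 5′ to the 3′ end and the median like lost peak 67.8%, so both leaned to the 3′ side where H3K36me3 is usually strongest. A listed transcript start lay in 19 members, 2.80%, against 1.73% of like lost peaks. The table of genes gives no exons, so exonic and intronic peaks cannot be told apart. Promoter windows of the members' genes were 58.4% G or C with 15 CpG at the median, against 61.2% and 18 CpG for those of like lost peaks (532 of 655 members matched).

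**Figure D2:**
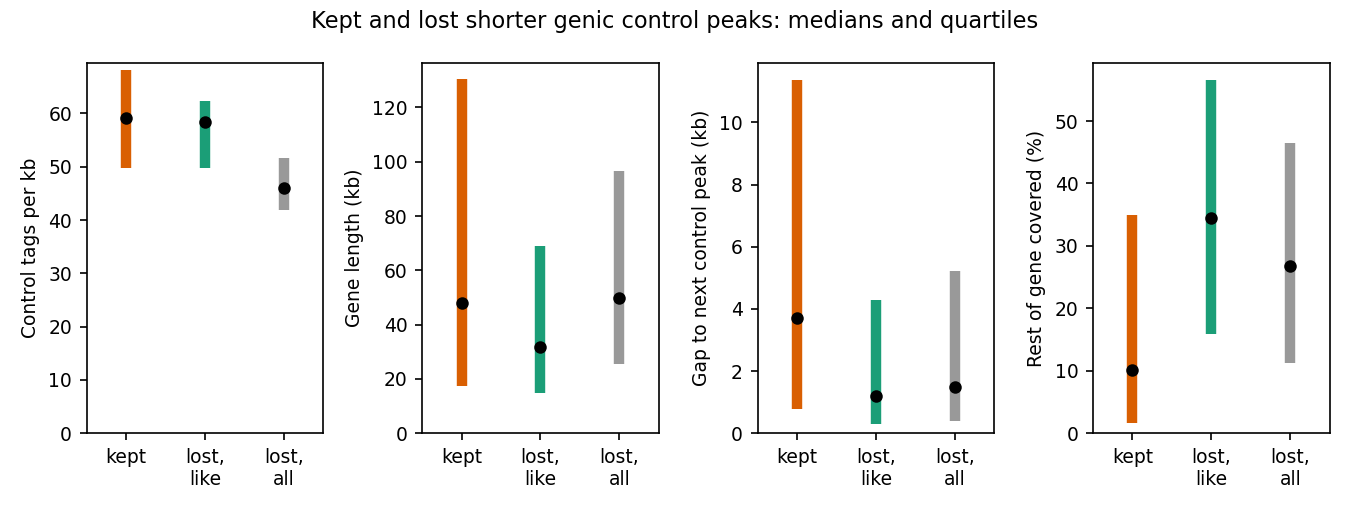
Medians (points) and quartiles (bars) of control tags per kb, gene length, gap to the next control peak and percent of the rest of the gene under control peaks, for members, like lost peaks and all lost peaks. Members match like lost peaks in median tags per kb (59.2 against 58.5), while the rest of their genes was covered less, 10.2% against 34.4%.

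At each level of tag density, the kept share of genic peaks was highest where the rest of the gene carried least of the mark. In the densest quintile 20.7% of peaks (17.5 to 24.1%) were kept where control peaks covered up to 10% of the rest of the gene, or 125 of 604. The share was 9.76% at 10 to 25% cover, 6.65% at 25 to 50%, 5.29% at 50 to 75% and 4.47% at 75 to 100%, or 19 of 425. In the sparsest quintile 28 of 1637 peaks (1.71%) were kept at up to 10% cover, and 0 of 449 and 0 of 91 at 50 to 75% and 75 to 100%, for which the upper interval bounds were 0.818 and 3.97%. Peaks that themselves covered at least 50% of their gene form another class, with 107 of 897 (11.9%) kept in the densest quintile. Shorter intergenic control peaks had their midpoint outside all protein-coding genes, non-coding genes and pseudogenes. They were kept in 850 of 4122 cases, 20.6% (19.4 to 21.9%), and in 230 of 463 (49.7%) in the densest quintile. In that quintile median lengths were 4383.5 bp for the least covered genes, 5345 bp for the most covered and 3862 bp for intergenic peaks. Peaks that covered at least 50% of their gene had a median of 6258 bp. Length was not matched between these classes, and its part in the shares was not tested.

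**Figure D3:**
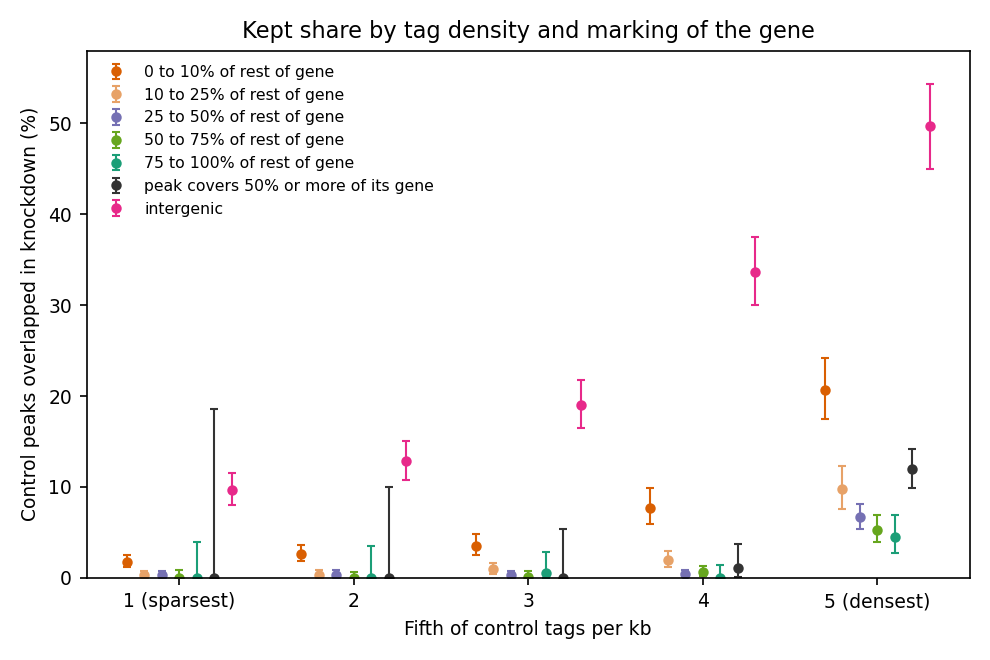
Percent of shorter control peaks met by a knockdown peak (vertical axis, with exact binomial 95% intervals) by quintile of control tags per kb, sparsest to densest, and by the share of the rest of the gene under control peaks, with peaks covering at least 50% of their gene and intergenic peaks apart. In the densest quintile the share was 20.7% at 0 to 10% cover and 4.47% at 75 to 100%, beside 49.7% for intergenic peaks.

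The members themselves divided along this measure. The 283 members in genes covered to 10% or less elsewhere were short, with a median of 3006 bp, in genes of a median 114693 bp, and knockdown peaks lay over a median of 57.2% of them. Their median density was 2.37 in knockdown and 2.70 in control, and 84 of the 106 members with a ratio of at least 1 were among them. The 109 members that covered at least 50% of their gene were long, with a median of 7378 bp, in genes of a median 7528 bp, and knockdown peaks lay over a median of 28.9% of them. Their median density was 2.42 in knockdown and 3.74 in control, with 1 ratio of at least 1. Between these, the 77 members in genes covered over 50% elsewhere had no ratio of at least 1. Median knockdown density in all 6 classes of cover lay between 2.30 and 2.42, while the control medians ran from 2.70 to 3.74. Here too the knockdown values include only peaks above the caller's threshold.

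Besides zinc finger genes, 7 genes were among the 10 with the most members. Ttn, the gene of the muscle protein titin, held 5 members among 19 shorter control peaks in 278578 bp, with densities of 2.14 to 2.33 in knockdown and 2.19 to 2.41 in control. Etl4, a gene of 900329 bp, held 5 members among 15 shorter control peaks, and 2 of these touched the same knockdown peak. Densities there were 2.28 to 2.75 in knockdown and 2.22 to 3.04 in control. Tiam1, an exchange factor for the GTPase Rac, held 3 of 11, with 2.17 to 2.41 in knockdown and 2.64 to 3.29 in control. Kcng2, a potassium channel subunit, held 3 of 4, with 2.61 to 2.68 in knockdown and 2.11 to 2.48 in control. Knockdown peaks covered 17.7% of Kcng2 and control peaks 13.3%, and the adjoining Slc66a2 held 3 members of 5. Bst1, a cell surface enzyme of NAD metabolism, had all 3 of its shorter peaks kept. Map3k4, a kinase of the MAPK cascade, held 3 of 13.

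**Figure D4:**
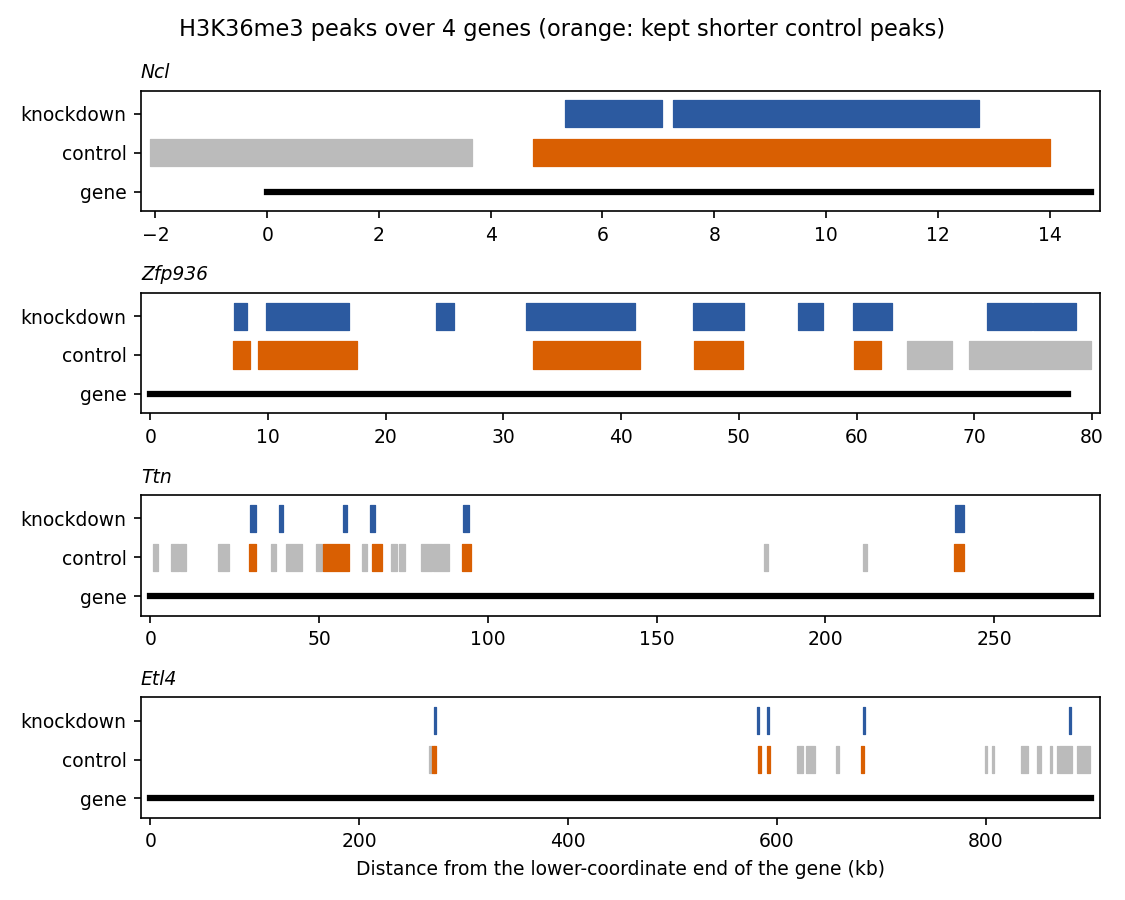
Peaks over Ncl, Zfp936, Ttn and Etl4, with the knockdown list above the control list and the gene as a black line, against distance from the lower-coordinate end of the gene in kb. Members are orange and other control peaks grey. In Zfp936 5 of 6 shorter control peaks were members, and in Ttn 5 of 19.

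Zinc finger genes with a Zfp symbol, many of which encode DNA-binding repressors of the KRAB family, held 56 members in 48 genes. That is 18.3% of the 262 Zfp genes with a shorter control peak (13.8 to 23.5%), beside the 7.22% of all genes. The strata of length and tags per kb would give 23.2 kept peaks among their 555, with density not matched further within the densest stratum. In members as a whole 8.26% were in Zfp genes, against 2.77% of like lost peaks. Zfp936 held 5 members of 6 shorter control peaks, and knockdown peaks covered 45.5% of the gene against 48.2% for control peaks. Its densities were 2.18 to 3.96 in knockdown and 2.04 to 3.82 in control. Zfp978 held 3 of 6, with 2.73 to 4.37 in knockdown and 3.27 to 5.59 in control, and Zfp951 held 3 of 8, with 2.26 to 2.45 and 2.82 to 3.37. In Zfp982 knockdown peaks covered 40.4% of the gene and control peaks 8.86%. These genes lie in families of similar sequence, and the sources used here do not give the treatment of reads with several matches, so tags may be shared between copies. With Zfp genes left out, the members' median cover, ratio and comparisons with like lost peaks stayed within their intervals.

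Members also lay in cytosolic ribosomal protein genes and in genes of translation factors. Cytosolic ribosomal protein genes held a member in 16 of 54, 29.6% (17.98 to 43.6%), beside 7.22% of all genes, and 16 of their 54 shorter peaks were kept where the strata would give 6.84. These 54 peaks had a median of 66.2 tags per kb, above the upper quartile of 62.3 in like lost peaks. The strata do not match density further there, so 6.84 is not a count for peaks of equal density. The median ratio of these members was 0.648, lower than the 0.787 of all members. Rpl3 had a density of 3.00 in knockdown and 4.19 in control, Rps3 had 2.38 and 3.92, and Rps10 had 2.52 and 4.36. Knockdown peaks covered 77.6% of the Rpl3 member, 65.1% of the Rps3 one and 54.5% of the Rps10 one. Some reads of these genes may also match their processed pseudogenes. Translation factors held a member in 6 of 46 genes, 13.0% (4.94 to 26.3%), with 6 kept peaks beside 4.97 from the strata. Besides Eef2, Eif5 had 2.53 in knockdown and 4.48 in control, and Eif4a2, a helicase of translation initiation, had 2.41 in knockdown and 3.91 in control.

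Chaperone genes held a member in 4 of 13, 30.8% (9.09 to 61.4%) beside the 7.22% of all genes, with 4 kept peaks beside 1.703 from the strata. The members of Hsp90ab1 and Calr had 84.2 and 78.0 tags per kb in control. Density is not matched further within the densest stratum, so strata counts of this and the other lists do not stand for peaks of equal density there. Hsp90ab1, a cytosolic chaperone, kept a density of 3.47 in knockdown against 4.35 in control, Tcp1, a chaperonin subunit, 2.36 against 3.58, and Calr, a chaperone of the endoplasmic reticulum, 2.43 against 4.02. Splicing factors held a member in 9 of 54, 16.7% (7.92 to 29.3%), with 9 kept peaks beside 6.30 from the strata. In that list Ptbp3 had 2.57 in knockdown and 3.94 in control, Hnrnph1 2.49 and 3.43, and Ptbp1 2.38 and 4.14. Each of these proteins binds RNA and regulates splicing. Elongation factors of RNA polymerase II held a member in 6 of 30, 20% (7.71 to 38.6%) beside 7.22% of all genes, with 6 kept peaks beside 3.58 from the strata. Polr2m had 2.33 in knockdown and 3.90 in control, Nelfa, a subunit of the pausing factor NELF, 2.48 and 3.02, and Aff4, a scaffold of the super elongation complex, 2.49 and 2.75.

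A list headed pluripotency held a member in 6 of 25 genes, 24.0% (9.36 to 45.1%), beside 7.22% of all genes. It had 7 kept peaks beside 3.45 from the strata and a median ratio of 0.734. The list is wider than pluripotency factors, since it takes in Trim28, Dnmt3l, Tet1 and Tet2. Sall4, a transcription factor of the pluripotency network, had a density of 2.48 in knockdown and 3.86 in control, and Tet1, a dioxygenase that oxidises 5-methylcytosine, had 2.41 and 3.28. Tet2 and Esrrb completed the 6 genes beside Trim28 and Dnmt3l. At Esrrb the knockdown peak shared 207 bp, or 9.26% of the control peak. Of cadherin and protocadherin genes, which encode adhesion proteins, 7 of 90 held a shorter control peak. A member was held by 2 of these 7, 28.6% (3.67 to 71.0%), beside 7.22% of all genes. Kept were 4 of their 16 shorter peaks, where the strata would give 0.191. Of these, 3 were in Cdh13, with densities of 2.37 to 2.54 in knockdown and 2.27 to 2.38 in control, and 1 in Cdh4, with 2.56 and 2.46.

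Several lists held 1 or few members. Cytoskeletal genes held one in 4 of 18, 22.2% (6.41 to 47.6%) beside 7.22% of all genes, with 4 kept peaks beside 2.66 from the strata. Among them were Cfl1, the actin-severing cofilin, with 2.18 in knockdown and 3.82 in control, Ahnak with 2.41 and 3.50, and Tuba1c with 2.05 and 3.31. Basement membrane and matrix genes held one in 2 of 17, 11.8% (1.46 to 36.4%), with 2 kept peaks beside 2.54 from the strata. These were the laminin genes Lamc1, with 2.16 in knockdown and 3.13 in control, and Lama5, with 2.32 and 3.38. Glycolysis held 1 of 12, or 8.33% of genes, with 1 kept peak beside 1.66 from the strata. It was Ldha, at 2.42 in knockdown and 3.81 in control. DNA replication held 1 of 23, or 4.35%, with 1 kept peak beside 1.83 from the strata. It was the licensing factor gene Cdt1, at 2.57 in knockdown and 4.07 in control. No member lay in the 26 chromatin remodeller genes, whose 162 shorter peaks would give 4.25 by their strata. None lay in the 53 mitochondrial ribosomal protein genes, with 3.36 from the strata, the 24 complex I genes, with 1.48, the 14 aminoacyl-tRNA synthetase genes, with 1.80, or the 7 microRNA processing genes, with 0.966. The upper interval bounds of these 5 shares were 13.2%, 6.72%, 14.2%, 23.2% and 41.0% of genes.

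Within one gene, gene length and surroundings are shared, and 377 genes held both kept and lost shorter peaks. The densest shorter peak of the gene was kept in 274 of them, 72.7% (67.9 to 77.1%), and the longest in 238, 63.1% (58.04 to 68.0%), where kept peaks made up a mean of 33.3% of the peaks. Median tags per kb were 57.8 in kept and 45.0 in lost peaks, and median lengths 4396 and 2245 bp. Kept peaks lay farther from the gene end than lost ones in 180 genes, 47.7% (42.6 to 52.9%), an interval that includes an even split. Of the remaining 221 genes with members, 214 had a single shorter control peak. One member was held by 536 genes and at least 2 by 62, with 5 as the most.

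At the length limit, with Gm and Rik symbols left out, the longest members were those of Rnf125 (9976 bp), Washc2 (9945 bp) and Leng8 (9935 bp). The first kept peaks beyond it were those of Oxnad1 (10052 bp), Dus1l (10120 bp) and Ino80d (10146 bp). Above the limit 307 of 1502 genic peaks on the same chromosomes were met by a knockdown peak. At the overlap limit, members of Hs2st1, Glmn and Pkd1l2 shared 5, 19 and 90 bp, and 5 members in all shared under 200 bp. The nearest lost peaks, in Zfp729a, Dlgap2 and Uvssa, ended 7, 10 and 40 bp from a knockdown peak, and 60 of the 23327 were within 1000 bp of one. High density alone did not keep a peak. The lost peaks with the most control tags per kb were in Zfp978 (108.0), Txnip (92.1), Zfp993 (86.8), Spout1 (84.9) and Fabp3 (82.9), all above the upper quartile of 68.2 in members. The authors' fold enrichment of the Zfp978 and Zfp993 peaks over local background was 3.48 and 3.03, under the lower quartile of 4.53 in members. That of the other lost peaks was 8.84 at Txnip, 7.31 at Spout1 and 9.78 at Fabp3, above the upper quartile of 6.69 in members.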

How the data were processed

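H3K36me3 ChIP and input libraries of Setd2 knockdown and control mouse embryonic stem cells were grouped by the genotype, treatment and antibody in the labels. Per the submitters' processing notes, FastQC 0.11.5, Bowtie 1.1.2 and build mm10 were used. MACS 1.4.2 was run by the authors on merged replicates against merged inputs, per the file headers, with a p-value cutoff of 1e-05, 1 tag kept per position and an effective genome of 1.87e+09 bp. Replicates are numbered in the labels, with no word on separate cultures. Each deposited table gives a count of tags per peak, not normalized, a score (10 times the negative log10 of its p-value), a fold enrichment (the authors' ratio over local background) and an FDR in percent.

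From these, overlaps of at least 1 bp, tags per kb and depth-scaled densities were computed in Python 3.11.15 with numpy 2.4.6, pandas 2.3.3 and scipy 1.17.1, checked on simulated peaks. Depth came from the headers: knockdown ChIP held 38670982 tags and control ChIP 42509111, and kept inputs were 33403964 and 35134297. Intervals of shares are exact Clopper-Pearson 95% intervals. Those of ratios of medians come from the counting error of the members' median. Both kinds cover counting error only. Genes are the 21887 protein-coding genes of RefSeq GRCm38.p6. When several genes held a midpoint, as at 11 members, the longest was used. Strand and promoter windows were listed for 17492 genes, and none on chromosome 18. No p-value was computed, as each condition is 1 list.

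Members, gene lists and tests were chosen with earlier results of these data known. Named genes are those with the most shared bp, most members, highest and lowest density ratio, the densest lost peaks, up to 3 per list by shared bp, and those nearest to the limits, without Gm and Rik symbols. A few others that hold members or promoter windows were named after their values were seen. The sequence of the peaks was not used here, as no genome was given.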

Additional observations from a re-analysis of the deposited data

How the results depend on the processing

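No paired analysis was possible because peaks were called on merged replicates, and for the same reason no replicate could be left out. Of 75 alternative values 37 stayed within the counting interval, or within 1.5 times for counts, 36 moved and 2 turned. The main values were 678 members, 2.82% kept, a median cover of 43.4%, a density ratio of 0.787, a gene length ratio of 1.51, an end distance ratio of 1.38, 598 genes and a ratio of 0.296 for cover of the rest of the gene, the last 3 ratios being kept over like lost. Requiring cover of at least 50% gave 276, 1.15%, 69.2%, 0.892, 1.91, 1.95, 242 and 0.136 in that order. Keeping only scores of at least 100 gave 221 members, 1.42%, 48.5% cover, a density ratio of 0.767, a gene length ratio of 1.86, 205 genes and 0.222 for the rest of the gene. An FDR of 1% or less gave 114, 0.477%, 33.9%, 0.802, 1.24, 1.09 (interval 0.779 to 1.72), 112 and 0.583. In knockdown this filter left mainly low-scoring peaks and removed the highest-scoring ones, so it is not a stricter setting. A limit of 5000 bp gave 375 members, 1.86%, 55.9%, a density ratio of 0.880, an end distance ratio of 1.85, 327 genes and 0.152. No length limit gave 3.86%, 32.1%, 0.731 and a gene length ratio of 1.20. Without strata, against all lost peaks, the gene length ratio was 0.958 and the end distance ratio 0.834. Scaling the same peak tags by the total before duplicate removal gave a density ratio of 0.702. This changed only the divisor of each condition and did not count the peaks' tags anew. Settings chosen after seeing the data were pairs covering 50% of each other, with a density ratio of 0.901, leaving out Zfp genes, finer strata, and every setting of the rest-of-gene ratio. The rest-of-gene ratio was below 1 in each setting run. Causes of these moves were not tested beyond what the settings themselves remove.

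Depth limits what a lost peak means: knockdown had fewer kept tags, and a peak below the caller's threshold is not shown to lack the mark. A ratio of densities at members leaves out every site that fell under that threshold. It is scaled to the genome mean of each condition, so it does not measure how much of the mark was lost. Tags and neighbouring peaks are not independent, so intervals are narrower than the true uncertainty.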
